A study of Mus musculus with 8 samples.

Results

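Trimethylation of histone H3 at lysine 27 (H3K27me3) was compared between isografts of 2 Lewis lung carcinoma (LLC) lines, LLC-NR tumors, which are drug sensitive, and LLC-R tumors, which are drug resistant. The data were the 2 H3K27me3 libraries of the 8 in the series, chosen by the antibody and line given for each sample. One library came from each line, so every difference below is between 2 libraries, without replicates and without a test, and the intervals cover counting error only. LLC is a mouse lung carcinoma line of C57BL origin. LLC-R cells had been selected in 5 rounds in mice under continuous VEGF-Trap, a soluble decoy receptor that binds vascular endothelial growth factor (VEGF), and the handling of LLC-NR cells before injection is not given in the sources used here. Cells of either line were injected under the skin of the flank of C57BL/6J female mice aged 6 to 8 weeks, and tumors were taken at about 500 mm3. The labels give the tissue as lung, and the isografts grew on the flank. The other 6 libraries, for H3K36me3, H3K9ac and H3K4me3 in the same lines, are given only beside the H3K27me3 values.

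H3K27me3 is written by Polycomb repressive complex 2 through its catalytic subunit EZH2 (or EZH1). It marks silent genes, is densest over developmental regulators such as the Hox clusters, and spreads in broad domains. It is low over transcribed gene bodies, where H3K36me3 is deposited behind RNA polymerase II, and the presence of H3K36me3 on a histone tail hinders its addition. Tumor tissue also holds vessels, fibroblasts and leukocytes of the host. A position list from whole tissue therefore does not tell fewer cells with the mark from fewer marked nucleosomes in each cell.

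Chromatin was cut to nucleosomes with micrococcal nuclease before the immunoprecipitation. Each called peak has the width of the DNA on a nucleosome core, and no peak overlaps another of its library. On chromosomes 1 to 19 the LLC-NR library held 6889867 peaks, which covered 42.3% of the sequenced bases, and the LLC-R library held 8629352 peaks, which covered 53.0%. The LLC-R library was also the more deeply sequenced of the pair, and depth, line and tumor cannot be told apart. Counts were therefore divided by the peaks of their own library on these chromosomes, and a log2 ratio is LLC-R over LLC-NR on that scale, so that 0 is an equal share and not an equal number. Densities are peaks per usable kb, where a base is usable if it lies within 100 bp of a peak midpoint of any library of the other 3 marks. In tiles and region classes all peaks are counted, also those on bases that are not usable.

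The peaks near 4 gene starts show what a shared and an unshared position look like. For each gene and line, the sequence is that of the peak nearest the transcription start site (TSS) that overlaps no annotated untranslated region, read from mm9 on the strand of the gene, with each CpG in capitals. Sox9, a transcription factor of cartilage and progenitor cells, and Col1a1, the alpha 1 chain of type I collagen, had such peaks at nearly the same place in both lines. The Sox9 peaks lay at chr11:112643183-112643329 in LLC-NR and chr11:112643178-112643324 in LLC-R, 282 and 287 bp upstream of the TSS, with midpoints 5 bp apart and 10 CpG each. Closer to the Sox9 TSS the lines differed. LLC-NR had a peak 242 bp downstream, with the nearest LLC-R midpoint 106 bp away. LLC-R had one 56 bp upstream, with the nearest LLC-NR midpoint 226 bp away. Both overlap an untranslated region and are not printed. The Col1a1 peaks lay at chr11:94797372-94797518 and chr11:94797381-94797527, 93 and 84 bp upstream, with midpoints 9 bp apart and 6 and 5 CpG.
Sox9, LLC-NR peak: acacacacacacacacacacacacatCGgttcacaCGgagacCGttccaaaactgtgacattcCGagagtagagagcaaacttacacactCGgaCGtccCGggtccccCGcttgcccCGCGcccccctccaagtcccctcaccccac
Sox9, LLC-R peak: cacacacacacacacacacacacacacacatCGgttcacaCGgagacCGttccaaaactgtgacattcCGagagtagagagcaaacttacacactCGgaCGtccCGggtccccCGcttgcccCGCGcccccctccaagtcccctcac
Col1a1, LLC-NR peak: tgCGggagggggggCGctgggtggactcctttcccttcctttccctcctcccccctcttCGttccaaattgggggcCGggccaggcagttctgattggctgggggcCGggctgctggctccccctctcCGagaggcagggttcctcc
Col1a1, LLC-R peak: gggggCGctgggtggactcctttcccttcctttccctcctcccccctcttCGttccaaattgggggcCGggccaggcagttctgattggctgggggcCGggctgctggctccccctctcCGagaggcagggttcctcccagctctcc

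Rplp0, a protein of the large ribosomal subunit, and Cd68, a lysosomal protein of macrophages, had fewer peaks around the TSS in LLC-NR than in LLC-R, and their nearest printable peaks were at different places. For Rplp0 they were chr5:116008916-116009062 in LLC-NR, 487 bp upstream of the TSS, and chr5:116009028-116009174 in LLC-R, 375 bp upstream, with midpoints 112 bp apart. Closer to the Rplp0 TSS, at 185 bp downstream, a peak of LLC-NR had an LLC-R midpoint 0 bp away, and it overlaps an untranslated region and is not printed. For Cd68, on the minus strand, they were chr11:69479926-69480072 in LLC-NR, 435 bp upstream, and chr11:69479678-69479824 in LLC-R, 187 bp upstream, with midpoints 248 bp apart. The sequences hold 8 and 3 CpG for Rplp0 and 1 and 3 for Cd68.
Rplp0, LLC-NR peak: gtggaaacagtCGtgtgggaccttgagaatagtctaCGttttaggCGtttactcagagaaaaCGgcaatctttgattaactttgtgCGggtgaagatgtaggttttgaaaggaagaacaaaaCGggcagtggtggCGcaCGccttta
Rplp0, LLC-R peak: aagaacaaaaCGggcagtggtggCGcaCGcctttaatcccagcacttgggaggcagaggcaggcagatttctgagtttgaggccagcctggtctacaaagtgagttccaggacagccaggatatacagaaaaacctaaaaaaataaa
Cd68, LLC-NR peak: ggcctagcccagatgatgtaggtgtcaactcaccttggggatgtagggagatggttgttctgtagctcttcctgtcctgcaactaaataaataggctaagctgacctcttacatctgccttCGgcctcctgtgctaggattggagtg
Cd68, LLC-R peak: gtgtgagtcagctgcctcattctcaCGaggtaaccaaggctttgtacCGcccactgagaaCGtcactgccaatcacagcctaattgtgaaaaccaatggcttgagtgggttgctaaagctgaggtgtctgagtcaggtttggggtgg

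The first question was how evenly H3K27me3 was spread over the genome. In LLC-NR the called peaks were spread unevenly, and in LLC-R they were close to even. Over 207876 tiles of 10 kb with at least 75% usable bases, LLC-NR had 3.26 ± 0.755 peaks per usable kb (mean ± SD over tiles) and LLC-R had 4.07 ± 0.368. The 5th and 95th percentiles were 1.96 and 4.33 in LLC-NR, a 2.21-fold range, and 3.42 and 4.61 in LLC-R, a 1.35-fold range. The upper ends of the ranges were thus closer to each other than the lower ends. Among the sparsest 5% of LLC-NR tiles the mean was 1.71 peaks per usable kb in LLC-NR compared with 3.53 in LLC-R, and among the densest 5% it was 4.46 in LLC-NR against 4.43 in LLC-R. These tiles were chosen by their LLC-NR level, and the values describe them only. Among the densest 5% by LLC-R level the mean was 4.01 in LLC-NR against 4.71 in LLC-R. Among the sparsest 5% by LLC-R level it was 2.18 and 3.21.

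**Figure D1:**
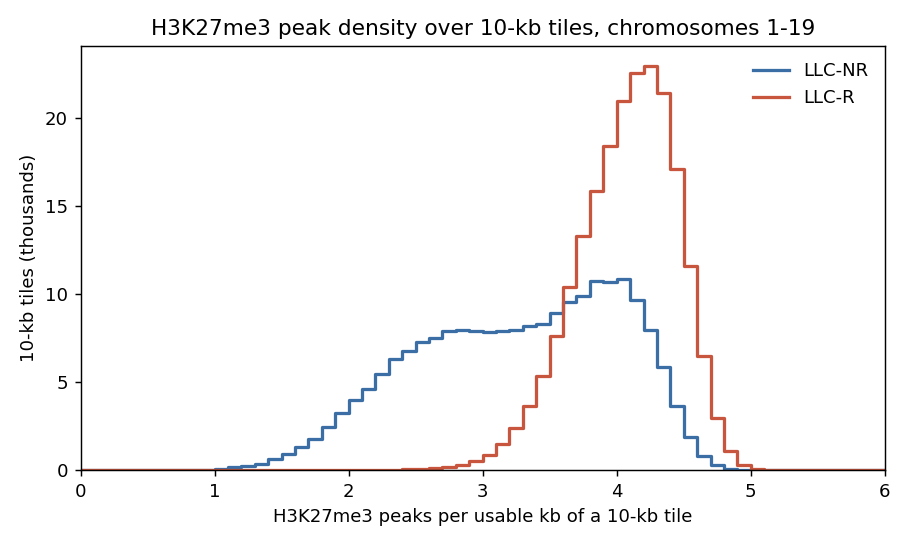
Number of 10-kb tiles (vertical axis, in units of 1000 tiles) at each density of H3K27me3 peaks per usable kb (horizontal axis) on chromosomes 1 to 19, for the LLC-NR and LLC-R libraries. The LLC-NR tiles spread widely, with a 5th percentile of 1.96 and a 95th of 4.33, and the LLC-R tiles form 1 narrow peak between 3.42 and 4.61.

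The same narrowing was seen for H3K36me3, whose range between those percentiles was 2.09-fold in LLC-NR compared with 1.33-fold in LLC-R. It was not seen for H3K9ac, with 1.51-fold and 1.53-fold, and was small for H3K4me3, with 2.07-fold and 1.85-fold. The number of peaks differed in the same marks. H3K36me3 had 6132117 peaks in LLC-NR but 8304603 in LLC-R, whereas H3K9ac had 8152931 and 7491487 and H3K4me3 had 5418394 and 5398636. The 2 marks with many more peaks in LLC-R were thus the 2 with a narrow range there. By the read counts of the paper, these marks also had more uniquely mapped reads in LLC-R than in LLC-NR. H3K9ac and H3K4me3 had fewer in LLC-R. The part of peak number and of sequencing depth in the range was not tested.

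**Figure D2:**
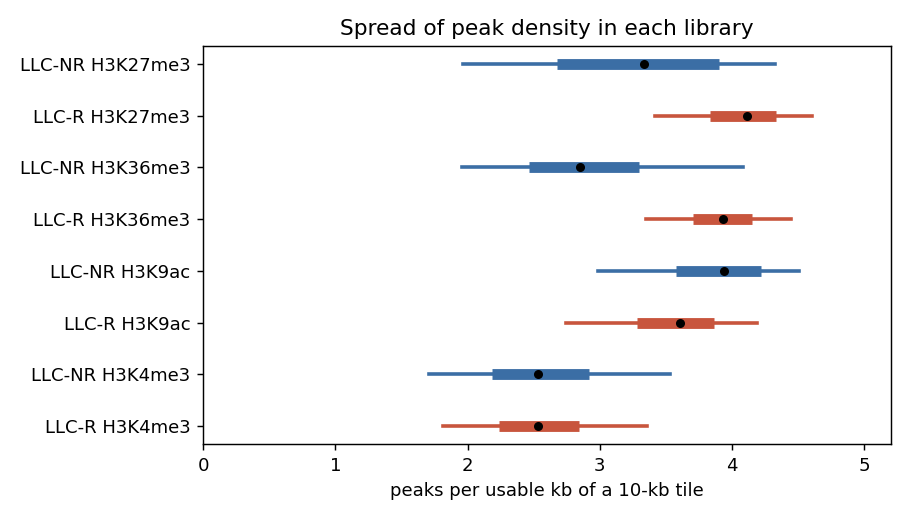
Peak density in 10-kb tiles (peaks per usable kb, horizontal axis) for each of the 8 libraries. Thin bars run from the 5th to the 95th percentile of tiles, thick bars from the 25th to the 75th, and dots are medians, and the LLC-R libraries of H3K27me3 and H3K36me3 have shorter bars, 1.35-fold and 1.33-fold end to end, than their LLC-NR partners.

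The order of regions was kept more closely at 100 kb than at 10 kb. The Spearman correlation of density between the lines, given as a description since neighbouring tiles share sequence and mappability, was 0.70 over the 10-kb tiles and 0.89 over 22241 usable tiles of 100 kb. For H3K36me3 it was 0.54 and 0.77. Of the 10-kb tiles 77.7% were on the same side of the median in both lines, and of the 100-kb tiles 87.7%. A tile changed its percentile by 14.1 in the median at 10 kb and by 8.09 at 100 kb.

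By share of own peaks, the change was lopsided at 10 kb. Of 207709 tiles with at least 10 peaks in each line, 10220 were 1.5-fold or more higher in LLC-R, which is 4.92% of tiles, and 19 were 1.5-fold or more lower, 0.00915%. The lower count depended on the scaling, with 109 tiles without the filter on usable bases and 1638, beside 12253 higher, after the mean of the other 3 marks was taken off. A further 167 usable tiles were left out because LLC-NR had fewer than 10 peaks there. At 100 kb, 3247 of 22240 tiles were higher by 1.2-fold, 14.6%, and 821 were lower, 3.69%, and with a straight line on G+C taken out 2387 were higher and 1637 lower. The tail of higher tiles was longer, with a 95th percentile of the log2 ratio of 0.41 and a 5th percentile of -0.25. Shares sum to the same total in both lines, so a smaller share need not be a smaller number of peaks.

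The 5 tiles of 100 kb with the highest ratio were among the sparsest of LLC-NR. The LLC-NR count is the lower term of the ratio, so their sparseness is not a separate result. The tile at chr7:80600001-80700000 overlaps Chd2, a chromatin remodeller, and went from 145 peaks in LLC-NR to 339 in LLC-R (log2 ratio 0.90). H3K36me3 had a ratio of -0.37 there. The tile at chr5:121700001-121800000, with the gene model Gm15800, went from 149 to 352 peaks (0.92). The other 3 held no protein-coding gene. They were chr14:84500001-84600000 with 118 and 290 peaks (0.97), chr5:51100001-51200000 with 155 and 358 (0.88) and chr14:84000001-84100000 with 119 and 268 (0.85). In their own library, 4 of the 5 stayed below the 4th percentile in LLC-R, and the tile at chr5:51100001-51200000 reached the 24.7th.

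The 5 tiles with the lowest ratio all lay in 1 segment, chr16:27200001-28700000, which holds part of Fgf12, an intracellular FGF-family protein that binds sodium channels. At chr16:27700001-27800000 there were 338 peaks in LLC-NR against 309 in LLC-R (log2 ratio -0.45), and at chr16:28400001-28500000, the tile with Fgf12, 395 and 374 (-0.40). The other marks were lower there too. In these tiles the H3K36me3 ratio lay between -0.52 and -0.36, the H3K9ac ratio between -0.43 and -0.27 and the H3K4me3 ratio between -0.83 and -0.54. Less the mean of the other marks, the 5 ratios were 0.02 to 0.11. The segment thus held a smaller share of the peaks of every mark in LLC-R, and the part of DNA copy number was not tested.

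Ranking each tile within its own library removes the narrowing from the comparison. By rank, 31 tiles of 100 kb fell by 50 percentiles or more in LLC-R, and 24 of them lay within chr16:21000001-34800000, where the median log2 ratio of the other marks over those tiles was -0.36. Another 13 tiles rose by 50 or more. The rising tiles included chr18:25000001-25100000, with the formin Fhod3, which went from percentile 23.6 to 86.0 (265 and 419 peaks), and chr5:129100001-129200000, with the Wnt receptor Fzd10, from 6.55 to 62.5 (220 and 400 peaks). In the Fzd10 tile the log2 ratio was 0.54 for H3K27me3, beside 0.29, 0.39 and 0.32 for H3K36me3, H3K9ac and H3K4me3. Over the 3 rising tiles of chromosome 18, the median log2 ratio of the other marks was 0.24. That chromosome as a whole held a larger share in LLC-R for every mark. Its log2 ratio was 0.12 for H3K27me3, beside 0.17, 0.10 and 0.20 for H3K36me3, H3K9ac and H3K4me3.

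The next question was where H3K27me3 formed broad domains. Domains were runs of at least 3 adjacent 10-kb tiles, each among the densest 5% of its own library. LLC-NR had 430 such domains over 15.5 Mb, the longest 90 kb, and LLC-R had 127 over 3.98 Mb, the longest 50 kb. The other marks, cut in the same way, also gave such runs. H3K36me3 had 1065 over 42.88 Mb in LLC-NR and 337 over 11.35 Mb in LLC-R. H3K4me3 had 433 and 514, the longest 670 kb in both lines, and H3K9ac 179 and 245. Of the H3K27me3 domains, 12 in each line overlapped one of the other line, which is 2.79% of the LLC-NR list and 9.45% of the LLC-R list. The overlap depended on the cut-off, with 12.4% and 28.8% of the lists when the densest 10% of tiles were used, and 10.4% and 29.7% when density was taken per 10 kb of sequence. Single dense tiles overlapped more, with 2120 in both lines, 20.4% of either list, beside 5% of all usable tiles called dense in each line. Of the tiles inside domains, 21.5% of those of LLC-NR and 34.7% of those of LLC-R were dense in the other line. Within LLC-NR domains the density was 4.48 in LLC-NR compared with 4.44 in LLC-R, so that these regions, chosen by their LLC-NR level, were at nearly the same density in LLC-R. Within LLC-R domains, chosen by their LLC-R level, it was 4.18 in LLC-NR compared with 4.71 in LLC-R.

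Genes named with a domain or run overlap it and may extend beyond it. One of the 2 longest LLC-NR domains, chr15:61750001-61840000, overlaps Myc, the proto-oncogene, with 395 peaks in LLC-NR against 402 in LLC-R. The other, chr10:84720001-84810000, with the gene model Gm8394, had 387 and 377. Prkch, a protein kinase C isoform, overlapped an 80-kb domain with 354 and 356 peaks, and 2 more domains of 80 kb held no protein-coding gene. The region near Myc was dense in H3K36me3 as well, with 4.45 peaks per usable kb in LLC-NR compared with 4.55 in LLC-R, above the mean of 2.91 and 3.92 over all usable tiles. The longest LLC-R domain on chromosome 15, at chr15:62050001-62100000, with 218 and 220 peaks, lay inside a domain of LLC-NR. Other LLC-R domains among its 5 longest overlapped Npas2, a circadian transcription factor, with 161 and 180 peaks, and the gene model 1110067D22Rik, with 161 and 189.

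Runs of sparse tiles, defined in the same way from the sparsest 5% after the domains had been seen, were more numerous. LLC-NR had 678 sparse runs over 27.3 Mb, the longest 160 kb, and LLC-R had 355 over 12.3 Mb, the longest 100 kb. Of these, 131 of LLC-NR (19.3%) and 132 of LLC-R (37.2%) overlapped a run of the other line. Single sparse tiles common to both numbered 3517 (33.8% of either list), beside 5% of all usable tiles called sparse in each line. With the sparsest 10% of tiles the overlapping shares of runs were 32.7% and 51.1%. Sparse runs were genic, with 75.3% gene body for LLC-NR and 65.3% for LLC-R, against 42.5% over all usable tiles. In the LLC-NR runs, chosen by their LLC-NR level, H3K27me3 had 1.65 peaks per usable kb in LLC-NR against 3.48 in LLC-R. H3K36me3 had 3.37 and 4.10 there.

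The longest LLC-NR run overlapped Atm, the DNA damage kinase, with Npat, a regulator of histone genes, Acat1, a mitochondrial thiolase, and Cul5, a ubiquitin ligase scaffold (chr9:53310001-53470000). It held 256 H3K27me3 peaks in LLC-NR compared with 529 in LLC-R, 1.64 and 3.40 per usable kb, beside H3K36me3 densities of 4.02 and 4.38. The next, at chr5:130650001-130790000, overlapped Rabgef1, 0610007L01Rik, Sbds, a ribosome maturation factor, and Tyw1, with 213 and 479 peaks. Among the 5 longest were also runs over Map3k2 and the helicase Ercc3, with 182 and 390 peaks, and over Gpr125, with 168 and 373. These runs were chosen by their low LLC-NR level, and the LLC-R library held more peaks in all. Their many more peaks in LLC-R are therefore not a separate result. In LLC-NR, H3K36me3 was 3.71 per usable kb over the run of Map3k2 and Ercc3 and 2.48 over that of Gpr125.

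Some regions stayed relatively sparse in LLC-R. Its longest sparse run lay over Diap3, an actin nucleator of the formin family, with 135 peaks in LLC-NR against 298 in LLC-R (1.40 and 3.10 per usable kb). Runs over Ankrd32 and 2210408I21Rik had 144 and 223 peaks, and over Sipa1l3 159 and 279. The run over Pyhin1 and Pydc3, interferon-inducible genes, had 162 and 181, at 2.78 and 3.11 per usable kb, and its LLC-NR density was above 2.68, the 25th percentile of LLC-NR tiles. The last of the 5, at chr14:83820001-83890000, held no protein-coding gene.

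Gene bodies and gene deserts were compared next. Both took a larger share of the LLC-R peaks, and the intergenic sequence between them a smaller one. Protein-coding gene bodies held 39.6% of the LLC-NR peaks (exact 95% interval 39.5 to 39.6) and 41.0% of the LLC-R peaks (40.9 to 41.0), a log2 ratio of 0.05. The 452 deserts, intervals of at least 500 kb between annotated genes of any kind less 10 kb at each end, held 13.5% and 14.3%, a log2 ratio of 0.09. Other intergenic sequence held 46.2% and 44.0% (-0.07), and promoters, from 1000 bp upstream to 500 bp downstream of the TSS, held 1.37% and 1.31% (-0.07). These shifts were small beside those of single tiles, but they had 1 direction on each chromosome. Relative to the peaks of its own chromosome, the share of gene bodies was higher in LLC-R on 19 of 19 chromosomes, with log2 ratios of 0.03 to 0.07. That of deserts was also higher on 19 of 19, with 0.01 to 0.19, and that of other intergenic sequence was lower on 19 of 19.

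Per usable kb, deserts were lowest and other intergenic sequence highest in both lines. Promoters were above gene bodies in LLC-NR and below them in LLC-R. Usable bases made up 86.0% of other intergenic sequence, 86.6% of deserts, 92.6% of promoters and 93.3% of gene bodies. Since all peaks were counted, the order of classes depends on this scale. Per kb of all sequence deserts were still lowest, but other intergenic sequence was not highest in either line. Deserts had 2.97 peaks per usable kb in LLC-NR compared with 3.95 in LLC-R, gene bodies 3.09 and 4.003, promoters 3.32 and 3.97, and other intergenic sequence 3.46 and 4.13. Deserts are rich in A+T, with 38.6% G+C against 43.2% in gene bodies, and the H3K36me3 ratio in deserts was 0.10. Less the mean of the other marks, the desert ratio was 0.04 and the gene body ratio 0.07. In gene bodies the H3K36me3 ratio was -0.08, opposite in sign to that of H3K27me3. Base composition moved with the change as well. In the 10% of tiles lowest in G+C, with 35.3%, the density was 2.81 in LLC-NR against 3.90 in LLC-R, and in the 10% of tiles highest, with 50.8%, it was 3.34 and 4.12. The part of base composition in the desert ratio was not tested.

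Along 9328 genes of 20 kb or more, LLC-NR showed a step at the gene start. The density was 3.49 in the bin from 4 to 3 kb upstream, 3.24 in the first of 20 equal bins of the body and 3.11 in the third, and it lay between 3.06 and 3.10 from the fourth to the last. In LLC-R the same bins had 4.15, 4.04 and 4.02. Downstream of the gene end LLC-NR rose again, from 3.06 in the first kb to 3.29 at 20 kb, and LLC-R from 4.003 to 4.08. The body was thus lower than the upstream flank in both lines, with a smaller difference in LLC-R, while the first kb after the gene end was at the level of the body.

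**Figure D3:**
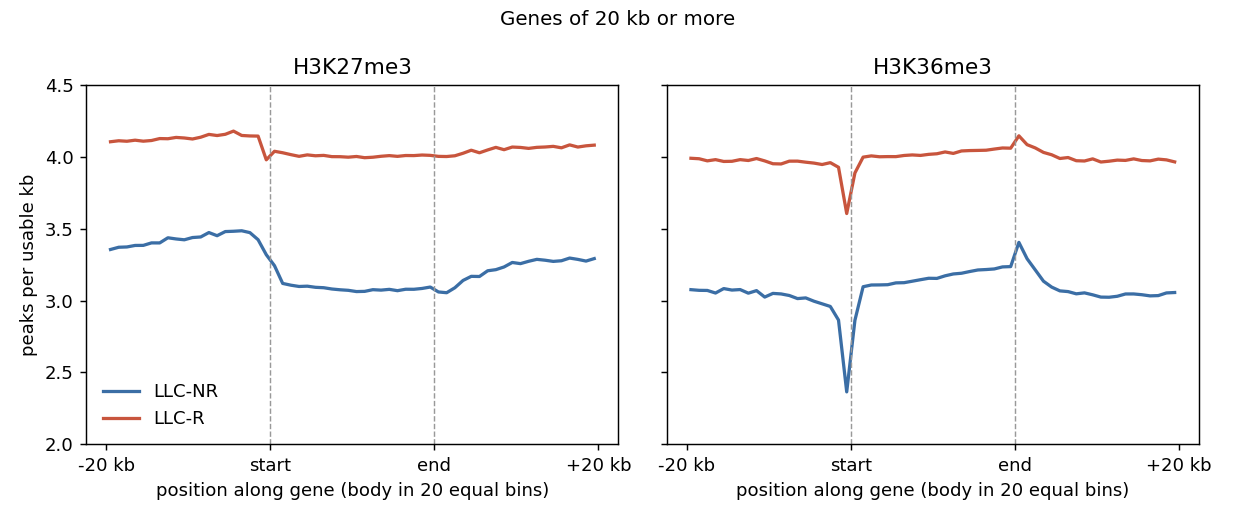
Peaks per usable kb (vertical axis, from 2 to 4.5) of H3K27me3 (left) and H3K36me3 (right) from 20 kb upstream to 20 kb downstream of 9328 genes of 20 kb or more, with the body in 20 equal bins. Lines are the LLC-NR and LLC-R libraries and dashed lines mark gene start and end, and the H3K27me3 step at the start falls from 3.49 upstream to 3.11 inside genes in LLC-NR and from 4.15 to 4.02 in LLC-R.

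CpG-rich promoters, with 55% G+C or more and an observed over expected CpG ratio of at least 0.6, showed such a step. For 5265 of them LLC-NR had 3.33 peaks per usable kb in the bin from 5 to 4 kb upstream and 2.81 from 4 to 5 kb downstream, and LLC-R had 4.15 and 3.93. CpG-poor promoters, with a ratio below 0.4, showed none, with 3.42 and 3.41 in LLC-NR, and LLC-R had 4.12 and 4.10. At CpG-rich promoters the first nucleosome downstream of the TSS stood out. In the 100-bp bin that starts 100 bp downstream, LLC-NR had 4.45 peaks per usable kb and LLC-R 4.46, while the preceding bin had 2.94 and 3.49. At that position the lines had nearly the same density, as in the tiles densest in LLC-NR.

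For single genes of at least 20 kb with at least 75% usable bases and 60 peaks in each line, 8071 were compared. The log2 ratio was above 0 for 4551 and below 0 for 3520, with a median of 0.08. Densities ran from 1.99 to 4.22 (5th to 95th percentile) in LLC-NR and from 3.50 to 4.46 in LLC-R, and the Spearman correlation across genes was 0.90, which describes genes and not replicates. In LLC-NR 430 genes had 2 peaks per usable kb or fewer, and in LLC-R none of the 8071 did.

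The 5 genes whose ratio was highest after the mean of the other marks was taken off were all among the sparsest in LLC-NR. Atp2a2, the calcium pump SERCA2 of the endoplasmic reticulum, had 68 peaks in LLC-NR compared with 176 in LLC-R (log2 ratio 1.05) and was the sparsest of all 8071 genes in LLC-NR, with 1.41 per usable kb. Ppp3cb, a catalytic subunit of calcineurin, had 74 and 158, Zfp568, a KRAB zinc finger protein, 61 and 145, Acin1, a splicing-associated protein, 63 and 143, and Rpl24, of the large ribosomal subunit, 62 and 138 over an annotated span of 42.6 kb. Their H3K36me3 was dense, with 3.65 to 4.16 peaks per usable kb in LLC-NR. Both marks entered the choice of these genes, so neither density in LLC-NR is a separate result. The percentile of Atp2a2 among genes was 0.0124 in LLC-NR against 13.3 in LLC-R, whereas the other 4 stayed below the 3rd percentile in LLC-R.

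At the other end, 5 genes had nearly as many peaks in LLC-NR as in LLC-R. The lowest after the mean of the other marks was taken off, at -0.63, was 1700016M24Rik. It had 117 peaks in LLC-NR compared with 125 in LLC-R (log2 ratio -0.23). Trim29, an epithelial TRIM protein, had 107 and 108 (-0.31), Aspg, an asparaginase, 78 and 87 (-0.17), Arhgef16, a guanine nucleotide exchange factor, 86 and 89 (-0.28), and 1700008O03Rik 105 and 108 (-0.28). In LLC-NR their H3K36me3 was sparse, with 1.54 to 1.91 peaks per usable kb, and it was 3.71 to 3.92 in LLC-R. The H3K36me3 ratio entered the choice of these genes, so its size here is not a separate result.

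The label of the antibody was checked with gene lists, from peaks in the 10 kb centred on the TSS. In both lines the Hox genes, textbook Polycomb targets that set position along the body axis, were dense and housekeeping genes were sparse. The median over 39 Hox genes was 4.24 peaks per usable kb in LLC-NR against 4.51 in LLC-R, over 25 housekeeping genes 2.30 and 3.52, and over all 19835 genes compared 3.29 and 4.07. The difference between the lists was thus present in both libraries and smaller in LLC-R. Across all these genes, 9285 had a log2 ratio above 0 and 10550 below 0, 1079 were higher in LLC-R by 1.5-fold, 5.44%, and 3 were lower, 0.0151%.

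**Figure D4:**
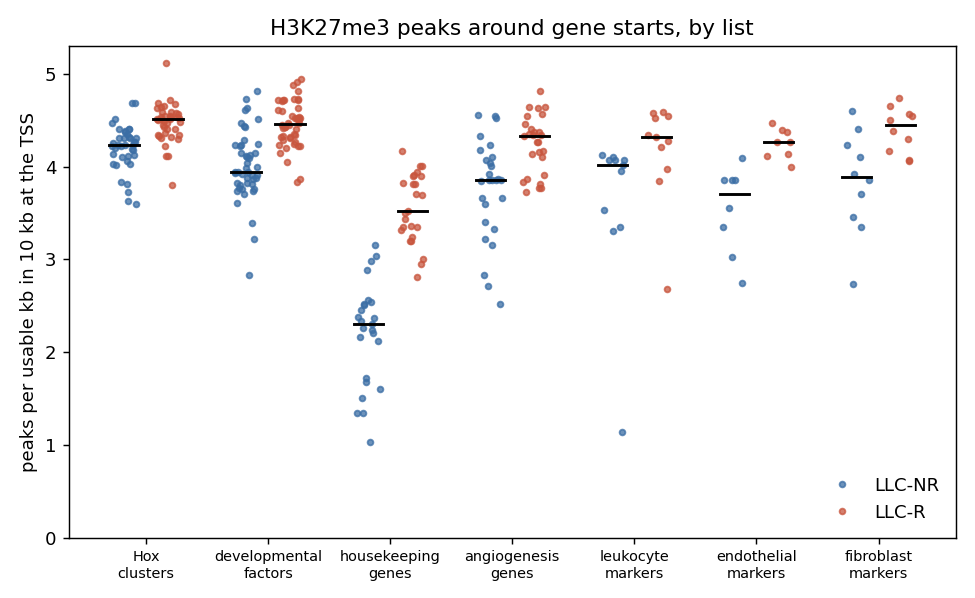
H3K27me3 peaks per usable kb in the 10 kb centred on the TSS (vertical axis) for the members of 7 gene lists, 1 dot for each gene in LLC-NR and in LLC-R, with black bars at the medians. Housekeeping genes are the lowest list in both lines, with medians of 2.30 and 3.52, and the Hox genes the highest, with 4.24 and 4.51.

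Over the 4 Hox clusters together there were 2030 peaks in LLC-NR compared with 2142 in LLC-R, a log2 ratio of -0.25 (95% interval -0.33 to -0.16, counting error). The number was equal for Hoxa (chr6:52105366-52210874), with 452 in both. It was 714 and 756 for Hoxb (chr11:96055630-96229570), 491 and 513 for Hoxc (chr15:102751534-102867274), and 373 and 421 for Hoxd (chr2:74506367-74603200), where the interval of the ratio, -0.35 to 0.05, includes 0. Of 39 genes, 39 had a ratio below 0, beside 10550 of 19835 genes in all, and none was lower by 1.5-fold, beside 0.0151% of all genes. The 10-kb windows of neighbouring Hox genes overlap, so the same peaks count for several genes and the 39 are not separate measurements. The ratio was lowest for Hoxa10 and Hoxa9, each with 43 and 41 peaks (-0.39), and highest for Hoxd10, with 37 and 46 (-0.01), and Hoxd9, with 36 and 43 (-0.07). For the other marks the ratio over the clusters was 0.02 (H3K36me3), 0.01 (H3K9ac) and -0.05 (H3K4me3).

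Other developmental factors were alike, with medians of 3.94 and 4.46 per usable kb over 46 genes and a median log2 ratio of -0.15, beside -0.02 over all genes. The ratio was below 0 for 43 and above 0 for 3, beside 10550 and 9285 of all genes, and none passed 1.5-fold in either direction, beside 5.44% higher and 0.0151% lower. Olig2, of oligodendrocyte precursors, had 45 peaks in LLC-NR against 43 in LLC-R (-0.39). The highest ratios were those of Irx1, of the Iroquois family, with 28 and 43 (0.29), and Sox9, with 32 and 43 (0.10). Irx1 and Sox9 had fewer peaks in LLC-NR than Olig2, and the 3 genes had 43 each in LLC-R.

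Housekeeping genes lay on the other side of 0. The ratio was above 0 for 25 of 25, beside 9285 of 19835 genes in all, with a median of 0.36, beside -0.02. Higher by 1.5-fold were 7, beside 5.44% of all genes. Rplp0, whose peaks are printed above, had 10 in LLC-NR compared with 31 in LLC-R (1.31), and Gapdh, a glycolytic enzyme, 13 and 31 (0.93). The lowest ratios in the list were those of Tbp, the TATA-binding protein, with 30 and 39 (0.05), and Tubb5, a beta-tubulin, with 22 and 29 (0.07). In LLC-R Rplp0 and Gapdh were still below the median of all genes, at 3.194 and 3.199 peaks per usable kb against 4.07. The median H3K36me3 density of the list was 3.32 in LLC-NR against 4.05 in LLC-R. Its H3K27me3 medians were 2.30 and 3.52. The sparsest 5% of LLC-NR tiles, chosen by that level, had 1.71 and 3.53, so a ratio above 0 is not particular to housekeeping genes.

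Angiogenesis genes, whose pathway the selecting drug blocks, gave a median ratio of -0.15 over 27 genes, with 5 above and 22 below 0, beside 9285 and 10550 of all genes. None passed 1.5-fold in either direction, beside 5.44% of all genes higher and 0.0151% lower. Vegfa, the main VEGF ligand, had 41 peaks in LLC-NR compared with 37 in LLC-R (-0.47), the lowest ratio in the list, and Epas1, which encodes HIF-2 alpha, 45 and 43 (-0.39). The highest ratios were those of Nfkb1, a subunit of NF-kappa B, with 25 and 37 (0.24), and Angpt2, an antagonist of the TIE2 receptor, with 27 and 38 (0.17). The list median was 3.86 peaks per usable kb in LLC-NR against 4.33 in LLC-R.

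Markers of host cells were described in the same way, for 11 of 13 leukocyte, 8 of 9 endothelial and 10 of 10 fibroblast genes. Counts below 0 stand beside 10550 of 19835 genes in all, and those past 1.5-fold beside 5.44% higher and 0.0151% lower. Of the leukocyte genes 9 had a ratio below 0, with a median of -0.15. Cd68 had 11 and 26 peaks (0.92), the only one of the list past 1.5-fold, and Cd14 had 33 and 42 (0.02), while Lyz2, lysozyme, had 37 and 36 (-0.36) and Itgam, an integrin of myeloid cells, 40 and 42 (-0.25). Endothelial genes were split, 4 above and 4 below 0 of 8, with 39 and 38 peaks for Cdh5 (VE-cadherin, -0.36), 38 and 42 for Kdr (VEGF receptor 2, -0.18), 26 and 39 for Pecam1 (CD31, 0.26) and 30 and 41 for Eng (endoglin, 0.13). Of 10 fibroblast genes 8 were below 0, with Postn (periostin) at 43 and 41 (-0.39), Col1a1 at 44 and 45 (-0.29), Col3a1 at 25 and 38 (0.28) and Lum (lumican) at 35 and 44 (0.01). No gene of the endothelial and fibroblast lists passed 1.5-fold. The peaks are from whole tumors, and the part of host cells in these values was not tested.

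The last comparison was at the scale of nucleosomes. Neighbouring midpoints were a median of 260 bp apart in LLC-NR compared with 230 bp in LLC-R. The 5th percentile was nearly equal, 157 and 154 bp, and the 95th was 732 and 459 bp, so that the lines differed in the long gaps. Gaps above 1 kb made up 2.38% of spacings in LLC-NR but 0.832% in LLC-R, and 1530 and 1178 gaps were longer than 10 kb. H3K36me3 went from 284 to 236 bp in the median, H3K9ac from 235 to 252 bp and H3K4me3 from 317 to 325 bp.

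Counting midpoints within 73 bp as shared, 4857196 positions were common to both lines, which is 70.5% of LLC-NR peaks (exact 95% interval 70.46 to 70.53) and 56.3% of LLC-R peaks (56.25 to 56.32). Both lists are dense, so the overlap was set beside the level at a distance. Per 1000 LLC-NR peaks there were 705 LLC-R midpoints within 73 bp, against 579 in the same number of positions at the level found 800 to 1000 bp away. The excess was close to the midpoint. At 0 bp there were 19.1 pairs per 1000 peaks, 4.85-fold the level of 3.94 per bp at 800 to 1000 bp, at 10 bp the excess was 1.98-fold, and at 23 bp that level was reached. A low stretch followed, with 2.68 at 126 bp, and then a second maximum of 4.92 at 165 bp. Peaks of the same library do not overlap, so an LLC-R peak at 0 bp leaves no room for another within a peak width. The part of this limit in the low stretch and in the second maximum was not tested, so 165 bp is not read as a nucleosome repeat.

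**Figure D5:**
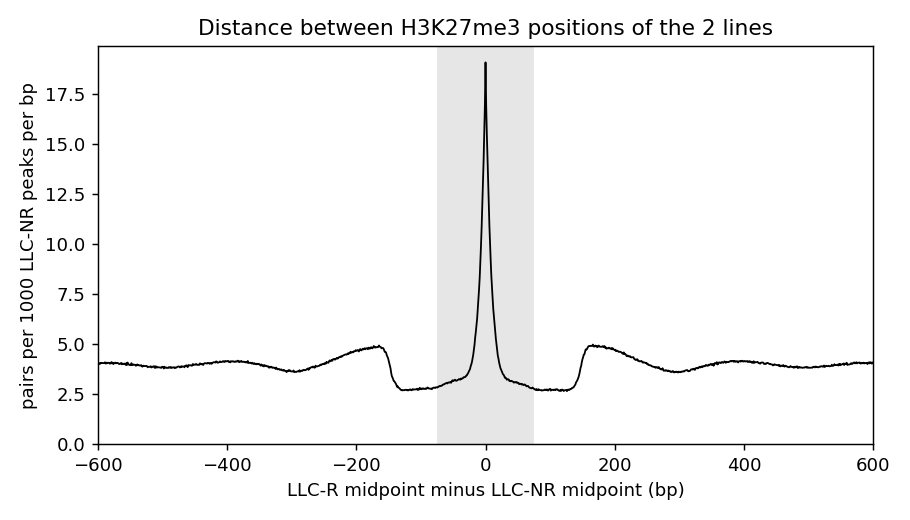
Pairs of LLC-NR and LLC-R midpoints (per 1000 LLC-NR peaks and bp, vertical axis) by the distance of the LLC-R midpoint from the LLC-NR midpoint (bp, horizontal axis), with the 73 bp on either side shaded. The sharp maximum of 19.1 at 0 bp falls to the distant level within 23 bp, and side maxima near 165 bp are followed by weaker waves.

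The same profile was drawn for LLC-NR H3K27me3 against the other marks. Against H3K36me3 the level at 0 bp was 4.86-fold that at 800 to 1000 bp in LLC-NR against 4.55-fold in LLC-R, and against H3K9ac it was 5.07-fold in LLC-NR compared with 4.89-fold in LLC-R. Against H3K4me3 it was 5.53-fold and 5.07-fold, so the value between the lines, 4.85-fold, lay inside the range between marks. The share of LLC-NR H3K27me3 peaks with a partner within 73 bp was 49.4% for the LLC-NR and 66.1% for the LLC-R library of H3K36me3, 66.2% and 61.6% for those of H3K9ac, and 45.3% and 44.1% for those of H3K4me3. The 3 libraries with the most peaks, LLC-R H3K36me3 and both of H3K9ac, gave the 3 largest shares. Shared H3K27me3 positions also had more partners in other libraries than line-only positions had. In LLC-NR H3K9ac, 71.3% of shared, 54.0% of LLC-NR-only and 56.8% of LLC-R-only positions had one.

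Line-only positions were not spread like the shared ones. In deserts 51.4% of LLC-R peaks were shared, in gene bodies 53.7%, in promoters 58.5% and in other intergenic sequence 60.2%. For LLC-NR peaks the same shares were 68.5%, 69.7%, 69.9% and 71.8%. Both orders are that of the LLC-NR densities of these classes per usable kb, and the order of densities depends on that scale. In base composition, shared peaks had 44.2% G+C, LLC-NR-only peaks 43.0%, LLC-R-only peaks 42.4% and all usable sequence 42.0%. Within 20 bp of the midpoint the G+C content was 45.2% for shared positions and 43.0% for either line-only class. It was lowest at 72 bp before and 74 bp after the midpoint, the ends of the peak, with 33.1% for shared, 31.5% for LLC-NR-only and 34.3% for LLC-R-only positions. LLC-NR-only positions had their highest G+C beside those ends, with 45.5% at 71 bp before and 45.7% at 73 bp after the midpoint.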

How the data were processed

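MNase-ChIP-seq libraries were from formaldehyde cross-linked tumors, with 1 library for each mark and line, and H3K27me3 was precipitated with an Abcam antibody (ab6002). How many tumors each library holds is not given in the sources used here. Bowtie 0.12.7 was used by the authors to place reads on mm9, with up to 2 mismatches, and reads with a unique position were kept. Nucleosome peaks were called with GeneTrack, whose settings are not given in the sources used here. The deposited files hold positions only, in 3 columns without a header, and no peak height, score or read count, so depth behind a peak is unknown.

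Peak midpoints from columns 2 and 3 on chromosomes 1 to 19 were assigned to tiles, genes and deserts of GENCODE on the mm9 assembly. Ratios are shares of own peaks. Tiles needed 75% usable bases and at least 10 (10 kb) or 100 (100 kb) peaks in each line. Higher or lower means 1.5-fold at 10 kb and around the TSS, and 1.2-fold at 100 kb. Intervals of shares are exact binomial ones (Clopper-Pearson, 95%) and hold counting error alone, and those of log2 ratios use the normal approximation to the log of a ratio of counts. No input library was used here. For each list the 2 genes with the highest and the 2 with the lowest ratio were named, with the 5 tiles, domains and gene bodies at each end, and tiles that changed rank were named after their values were seen. Some genes and a domain that the rule names are not reported here. The members and lists were chosen with earlier results of these data known. Functions were checked on simulated positions. Python 3.11.15, NumPy 2.4.6, pandas 2.3.3, SciPy 1.17.1 and Matplotlib 3.10.9 were used.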

Additional observations from a re-analysis of the deposited data

Results flagged for a closer look

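On chromosome Y, outside the chromosomes compared, the LLC-R H3K27me3 library held 2786 peaks and the LLC-NR library 85, which is 26.2-fold more relative to the peaks on chromosomes 1 to 19. It was set apart because chromosome Y enters no comparison and the host mice were female. The other marks gave 3205 and 48 (H3K36me3), 1993 and 328 (H3K9ac) and 1497 and 76 (H3K4me3) in LLC-R and LLC-NR. The source of these peaks was not tested.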

How the results depend on the processing

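Of 49 alternative values for 15 results, 21 stayed close to the reported value, 28 moved and 0 changed sign. The gene body log2 ratio was 0.0648 with the median 100-kb tile set equal, 0.0748 less the other 3 marks, 0.0453 with X added, 0.0522 without promoters and 0.0469 over usable positions only. The desert ratio was 0.103, 0.0397 and 0.0787 under the first, second and last of these, and 0.143 for deserts of 1 Mb or more. At 36 and 20 bp, 47.9% and 36.6% of LLC-NR peaks and 38.3% and 29.2% of LLC-R peaks were shared. The lower 10-kb tiles numbered 109 without the usable filter, 9 with the median tile equal, 34 with shifted tiles and 1638 less the other marks, and higher tiles 10208 to 12253 in these and 9495 without chromosome 16. The lower 100-kb tiles numbered 498 with the median tile equal, 1428 less the other marks and 1637 with a line on G+C taken out, where 2387 were higher. Dense domains numbered 1656 in LLC-NR and 723 in LLC-R at 10% of tiles, and 1050 and 381 per 10 kb of sequence. Sparse runs numbered 1857 and 1238 at 10% of tiles. Median spacing in usable tiles was 256 and 228 bp. Why these values moved was not tested. Usable positions only, leaving out chromosome 16, ranks and the sparse runs were chosen after seeing the data. No filter on usable bases enters the gene body ratio, so removing it gave the same value.

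No paired analysis was possible because each line has 1 library and the labels carry no replicate numbers. Line, tumor, immunoprecipitation and sequencing depth cannot be told apart. Peaks carry no height, so a stronger signal at a called nucleosome is not seen.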
